A study of Mus musculus with 6 samples.

Results

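The genes described here are 41 genes of the oral epithelium, 41 of the 24421 rows of the full tables, taken by symbol from a list of keratins, junction genes and regulators of epithelial identity. All 41 had a row, and 37 had a base mean (the mean normalised read count over libraries) of at least 10. RNA came from the anterior palatal mesenchyme of C57BL/6 mouse embryos at E12.5, after the palatal epithelium had been taken off with the protease Dispase II. The samples were 3 of wildtype embryos and 3 of Wnt1Cre;Meis2f/f embryos, in which the Wnt1Cre recombinase acts on a floxed allele of the homeobox gene Meis2. Wnt1Cre is active in the neural crest, which forms the palatal mesenchyme, and not in the oral epithelium, so an epithelial cell that stayed with the tissue is not itself a target of the deletion. No library carried Cre alone, so an effect of the transgene and of the deletion cannot be told apart. The samples of a genotype are labelled as biological replicates.

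The palatal shelf is a core of mesenchyme covered by a thin epithelium. The basal cells of that epithelium rest on a basement membrane, carry the transcription factor p63 and keratins 5 and 14, and are joined by desmosomes and tight junctions. The epithelium secretes Sonic hedgehog, to which the mesenchyme responds. Dispase cleaves basement membrane proteins so that the sheet can be peeled away. Transcripts of epithelial genes in the remaining tissue can come from epithelial cells that stayed behind, or, for genes that other cells also use, from those cells. The 10 genes known also from cells outside the epithelium (Krt8, Krt18, Cldn6, Dsp, Dsg2, Jup, Perp, Sp8, Spint2 and Shh) held 2339 of the 4247 normalised reads of all 41 in the wildtype mean, and their source was not tested. In bulk RNA, fewer cells of a type and less RNA per cell cannot be told apart.

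One deposited table compares all 6 libraries and the other compares 4 of these. Neither lists libraries singly, but the base mean of a gene is a sum of whole read counts, each weighted by its library's size factor, and this sum had 1 solution in whole numbers for each of the 16326 genes with a 4-library base mean under 700 and for each of the 41 epithelial genes. The read counts recovered in this way are given below divided by the size factors, as normalised reads. The sign of the authors' fold change places 3 libraries on each side of the comparison, and the letters A, B and C (wildtype) and D, E and F (mutant) used here are not the labels' replicate numbers. C and F are the libraries that the 4-library table leaves out. Which side is the mutant was read from Meis2, listed at -0.28 on the log2 scale by the authors' deposited table (SE 0.092, adjusted p 0.0743 by DESeq2's Wald test). Meis2 stood at 1526, 1695 and 1549 normalised reads in A, B and C and at 1250, 1218 and 1378 in D, E and F. Meis2 was thus lower in every library of the mutant side, and all directions below depend on this assignment. The libraries held between 5272730 and 9579893 recovered reads, of which between 2776 and 6027 fell on the epithelial genes. C and F stood apart from the others. Over genes at or above that base mean of 10, the chi-square per gene between libraries was 3.74 for A against B, and 5.29 and 6.13 for C against A and B. It was 3.38 for D against E, and 6.69 and 8.39 for F against D and E. No pair agreed within sampling noise.

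Transcripts of the epithelial genes were present in every library at a low level. Of 246 combinations of a gene and a library, 245 held at least 1 read, and the exception was Sp8 in library C, where 0 reads allow up to 3.55 normalised reads (3 counts). The 41 base means summed to 279 of every 1000000 of all base means in the authors' deposited table, and to 234 in its 4-library counterpart. Base means ran from 2.72 for Sp8 to 1283 for Dsp, with a median of 45.0, in the authors' deposited table. Levels can be compared between genes only per length, and exon lengths from GENCODE M21 were used for this. Per kb of exon, the highest base means were those of Jup (149.6), Dsp (134), Krt14 (129), Epcam (109.98), Krt18 (73.3), Perp (72.4), Cldn4 (57.4), Krt8 (52.0), Krt5 (48.7) and Krt17 (47.3) in the authors' deposited table. The median over the 37 measured epithelial genes was 22.3 per kb, against 798 per kb over 17 mesenchymal genes such as Vim, Col3a1 and Pdgfra. The mesenchymal genes ran from 41.7 to 9097 per kb in the authors' deposited table, so the ranges overlapped, with Twist2, Msx1, Prrx2 and Snai2 below Jup. The plot of normalised reads by gene and library shows how the 6 libraries spread around each level.

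**Figure D1:**
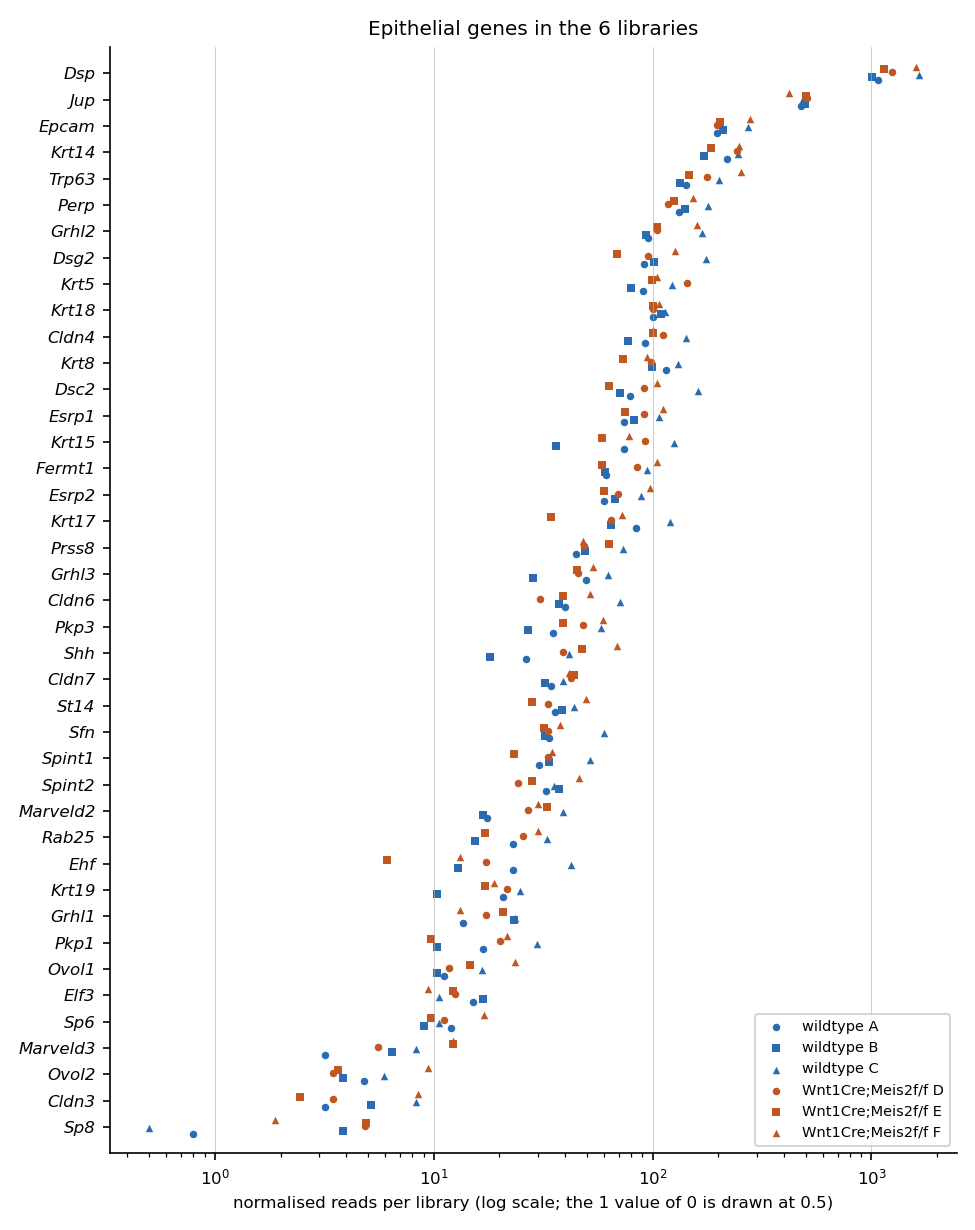
Normalised reads (recovered reads divided by the size factor, log scale) of the 41 epithelial genes, ordered by base mean, in the 3 wildtype libraries (blue) and the 3 Wnt1Cre;Meis2f/f libraries (orange). Library C (blue triangle) is the highest wildtype library for 33 of the 37 genes whose base mean reached 10, and library F (orange triangle) the highest mutant library for 25.

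The first question is whether the epithelial genes differed between the genotypes. The authors' deposited table called none of them at an adjusted p under 0.05 (DESeq2's Wald test, 0 of 41, of which 38 had an adjusted p), where 2.91% of all genes were called. The lowest adjusted p was 0.298. At an adjusted p under 0.1 the authors' deposited table also had 0 of 41, where 3.68% of all genes passed. An unadjusted p below 0.05 was listed for 3 of the 37 in the authors' deposited table, 1 higher in the mutant (Shh) and 2 lower (Krt17 and Ehf), where 10.7% of all genes with base means that high had one, 5.46% higher and 5.21% lower. The authors' deposited table of 4 libraries had 0 called (2.30% of all genes) and 0 below an unadjusted p of 0.05 (9.42% of all genes, 4.69% higher and 4.73% lower). A limma-voom fit to the recovered reads of 13468 genes called 0 of 37 epithelial genes, with 2.37% of all genes called, and 1, Shh, had an unadjusted p under 0.05, where 13.6% of all genes had one. The same fit called 0 of 37 with each library left out, where it called 0.869% of all genes without A, 1.31% without B, 2.32% without C, 1.38% without D, 1.67% without E and 2.23% without F. With the 4 libraries A, B, D and E it called 0 of 37 and 3.14% of all genes. At an unadjusted p under 0.05 this fit had 0 of 37 without A (8.05% of all genes), 3 without B (10.1%), 4 without C (18.2%), 2 without D (10.6%), 1 without E (16.1%), 1 without F (10.4%) and 4 with the 4 libraries (16.6%).

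The median log2 fold change of the 37 measured genes was 0.004, and that of all 14577 genes at or above the same base mean was -0.013, both from the authors' deposited table. Of the 41 log2 values in the authors' deposited table, 22 lay above 0 and 19 below, from -0.32 to 0.35. These values are shrunken, so that genes with few reads lie closer to 0. The limma-voom values are not shrunken, and their 95% intervals lay within 1 log2 unit of 0 on both sides for 32 of the 37 genes. For these genes a change of 2-fold or more lay outside the interval. The other genes, Shh, Ovol1, Marveld2, Krt17 and Ehf, had wider or shifted intervals, so a change of that size lay within the interval at this depth. The summed level of all 41 genes was 3789, 3584 and 5368 normalised reads in A, B and C and 4192, 3762 and 4905 in D, E and F. The groups overlapped over most of their range, with means of 4247 ± 976 (SD, n = 3) and 4286 ± 578 (SD, n = 3). The ratio of mutant to wildtype was 1.01, with a standard error of 0.155 calculated from the spread between libraries. Without library C the ratio was 1.16, and without library F it was 0.936.

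**Figure D2:**
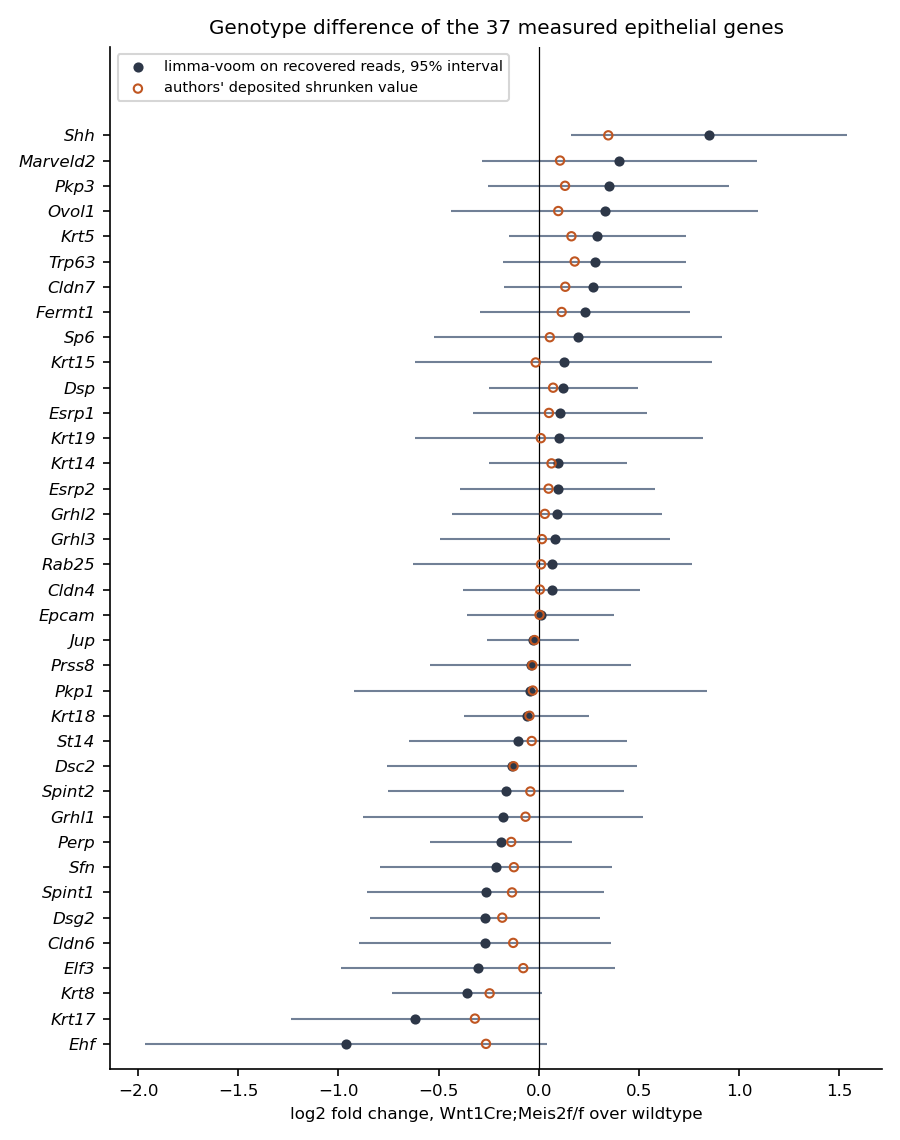
Log2 fold change (Wnt1Cre;Meis2f/f over wildtype) of the 37 epithelial genes whose base mean reached 10. Dark points with grey lines are limma-voom values and 95% intervals from the recovered reads, and open orange circles are the shrunken values of the authors' deposited table. The interval of Shh alone lies wholly on one side of 0.

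The keratins form the intermediate filaments of epithelial cells, as pairs of a type I and a type II protein. Krt5 (type II) and Krt14 (type I) pair in basal cells. Krt14, on chromosome 11 (100203162 to 100207548, GRCm38), stood at 219.7, 172 and 246 normalised reads in A, B and C and at 242, 186 and 247 in D, E and F. The groups overlapped, and the authors' deposited table lists 0.064 on the log2 scale (SE 0.132, adjusted p 0.936 by DESeq2's Wald test). Krt5 stood at 90.3, 80.1 and 123 in the wildtype libraries and at 144, 99.1 and 105 in the mutant ones, and the authors' deposited table lists 0.16 (log2, adjusted p 0.801). For both basal keratins the genotypes differed by less than the spread of the libraries.

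Krt8 and Krt18 pair in simple epithelia and in the outermost cells of stratifying ones, and their genes are neighbours on chromosome 15 (Krt8 at 101996698 to 102004482 and Krt18 at 102028180 to 102032027). Krt18 varied little, with 101, 109.7 and 114 normalised reads in A, B and C and 101, 100.3 and 107 in D, E and F. Krt8 stood at 115, 99.4 and 131 in the wildtype and at 98.1, 73.4 and 94.1 in the mutant libraries. Every mutant library was thus below every wildtype library for Krt8, and 8.95% of the 13468 recovered genes in the limma-voom fit had no overlap in this direction. The authors' deposited table lists Krt8 at a log2 value of -0.25 (adjusted p 0.593 by DESeq2's Wald test) and Krt18 at -0.046 (adjusted p 0.956). The difference between the genes was not tested.

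Krt17, a type I keratin of periderm and of epithelia under remodelling, on chromosome 11 (100256217 to 100261029), stood at 83.9, 64.6 and 121 normalised reads in A, B and C and at 64.7, 34.2 and 72.4 in D, E and F. Library E was the lowest and the groups overlapped. The authors' deposited table lists a log2 value of -0.32 (p 0.0341, adjusted p 0.404 by DESeq2's Wald test). The unshrunken log2 fold change was -0.62 (95% interval -1.24 to 0.004, limma-voom). The authors' deposited table of 4 libraries lists -0.19 (p 0.167). Krt14, Krt16 and Krt17 have closely similar sequences, and the sources used here do not say how reads matching several genes were counted, so their reads could be exchanged. Krt15, a basal keratin, had the widest spread among wildtype libraries of the keratins, from 36.2 in B to 125 in C, and Krt19 ran from 10.3 to 24.8.

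The claudins form the strands of the tight junction, and Marveld2 (tricellulin) and Marveld3 are membrane proteins of the same junction. Cldn4 was the most abundant per kb, at 92.7, 77.5 and 142 normalised reads in A, B and C and 112, 100.3 and 101 in D, E and F. The mutant libraries all lay inside the wildtype range. Cldn7 stood at 34.4, 32.3 and 39.0 in the wildtype and at 42.4, 44.0 and 41.4 in the mutant libraries, so its groups did not overlap, as for 8.95% of all recovered genes in this direction. The authors' deposited table lists Cldn7 at 0.13 (log2, adjusted p 0.868 by DESeq2's Wald test). Marveld2 was near 17 in A and B, at 17.6 and 16.8, and between 27.1 and 39.0 in the other 4 libraries. Cldn6, which is used widely in embryonic epithelia, ran from 30.6 to 71.0. Cldn3 and Marveld3 had base means of 5.17 and 7.99 in the authors' deposited table, and their reads per library ran from 2 to 9 and from 4 to 13, too few to show a difference of moderate size.

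Desmosomes anchor keratin filaments at the cell surface. Their cadherins are encoded by Dsg2 and Dsc2, their plaque proteins by Dsp, Jup, Pkp1 and Pkp3, and Perp encodes a membrane protein that desmosomes need. Dsp, on chromosome 13 (38151294 to 38198577), took 30.1% of the summed base means of the 41 genes in the authors' deposited table. It stood at 1075, 1008 and 1640 normalised reads in A, B and C and at 1238, 1146 and 1592 in D, E and F. C and F were the highest library of their genotype by a wide margin, and the authors' deposited table lists a log2 value of 0.072 (adjusted p 0.931 by DESeq2's Wald test). Without Dsp the ratio of the summed levels was 0.985.

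Jup, which encodes plakoglobin of desmosomes and of adherens junctions in many cell types, was nearly level across the wildtype libraries. It stood at 477, 498 and 483 normalised reads in A, B and C and at 509.9, 504 and 419 in D, E and F. Its wildtype SD of 11.1 was a small part of its mean of 486, and library C was not raised. Dsg2 ran from 91.1 to 175 in the wildtype and from 68.5 to 126 in the mutant libraries, and Dsc2 from 71.0 to 162 and from 63.6 to 105. Pkp1 and Pkp3 ran from 9.78 to 29.6 and from 27.1 to 59.3, and Perp from 118 to 179.8. For Dsp, Dsg2, Dsc2, Pkp1, Pkp3 and Perp the highest wildtype library was C and the highest mutant library was F.

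Trp63 encodes p63, which is required for stratified epithelia. It stood at 142, 133 and 202 normalised reads in A, B and C and at 177, 147 and 253 in D, E and F, and the authors' deposited table lists a log2 value of 0.18 (adjusted p 0.769 by DESeq2's Wald test). The highest library was F and the groups overlapped. The grainyhead-like genes Grhl1, Grhl2 and Grhl3 encode factors that hold epithelial cells in the epithelial state. Grhl2 was the most abundant of them per kb, with 95.1, 93.0 and 169 in the wildtype and 105, 105 and 159 in the mutant libraries. Grhl3 ran from 28.4 to 62.7 and Grhl1 from 13.2 to 23.7, and F was the lowest library for Grhl1.

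Ehf and Elf3 encode ETS factors of epithelia. Ehf had the largest unshrunken difference among the 37 genes, with 23.2, 12.9 and 42.6 normalised reads in A, B and C and 17.4, 6.11 and 13.2 in D, E and F. The groups overlapped, since D and F lay above B. The authors' deposited table lists Ehf at -0.26 (log2, p 0.0437, adjusted p 0.450 by DESeq2's Wald test), and at -0.068 (p 0.458) with 4 libraries. The limma-voom value was -0.96 (95% interval -1.96 to 0.04). Elf3 ran from 9.41 to 16.8, and among the 37 measured genes it had the lowest ratio of C to the mean of A and B, at 0.666. Ovol1, a zinc finger repressor of mesenchymal genes in epithelia, ran from 10.3 to 23.5, and Sp6, a factor of dental and limb epithelium, from 9.04 to 16.9. Ovol2 and Sp8 had base means of 5.19 and 2.72 in the authors' deposited table, and each had at most 10 reads in a library.

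Grainyhead-like factors bind the motif AACCNGTT, which was searched for on both strands in the 250 bases before the start of each gene, in RefSeq sequences of GRCm38.p6. Of 22 epithelial genes with an entry, 2 held a match, Rab25 and Sfn, and 540 of all 27025 genes (2.0%) and 1.79% of all 32851 windows held one. The windows are shown because Grhl2 and these genes were all detected and were all highest in C among the wildtype libraries and in F among the mutant libraries. Neither trait is particular to them. Reads were found in every library for 40 of the 41 genes. The order held for 23 of the 37 measured epithelial genes and for 23.3% of all recovered genes. Capitals mark the match. A match is a description of the letters and not a binding site. The windows lie at chr3:88548280-88548529 and chr4:133602169-133602418, both on the minus strand, and the matches begin 102 and 184 bases before the start.
Rab25: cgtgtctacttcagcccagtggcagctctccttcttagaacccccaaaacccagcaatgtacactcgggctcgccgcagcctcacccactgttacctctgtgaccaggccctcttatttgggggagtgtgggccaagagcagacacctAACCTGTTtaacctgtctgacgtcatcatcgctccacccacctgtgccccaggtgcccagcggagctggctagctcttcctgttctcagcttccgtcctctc
Sfn: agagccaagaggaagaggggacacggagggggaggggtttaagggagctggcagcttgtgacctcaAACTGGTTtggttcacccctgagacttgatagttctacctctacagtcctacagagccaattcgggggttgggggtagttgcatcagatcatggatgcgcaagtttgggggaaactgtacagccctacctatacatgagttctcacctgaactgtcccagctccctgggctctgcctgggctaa

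Rab25, a small GTPase of vesicle traffic in epithelia, stood at 23.2, 15.5 and 33.1 normalised reads in A, B and C and at 25.7, 17.1 and 30.1 in D, E and F. Sfn, the 14-3-3 sigma protein of stratified epithelia, stood at 33.6, 32.3 and 60.3 and at 33.4, 31.8 and 37.6. The genotypes overlapped for both, and the authors' deposited table lists Rab25 at 0.012 and Sfn at -0.12 (log2).

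Esrp1 and Esrp2 encode splicing regulators that set the epithelial form of many transcripts. Esrp1 stood at 74.3, 82.6 and 108 normalised reads in A, B and C and at 91.1, 74.6 and 112 in D, E and F, and Esrp2 ran from 59.9 to 97.8. The authors' deposited table lists them at 0.051 and 0.049 (log2). St14 (matriptase) and Prss8 (prostasin) are membrane-bound proteases of epithelia, and Spint1 and Spint2 encode their inhibitors. The authors' deposited table lists these 4 genes below 0 on the log2 scale, from -0.13 to -0.032, and called 0 of them (DESeq2's Wald test, 0 with an unadjusted p under 0.05). Of all genes, 2.91% were called and 10.7% had such a p, so 0 of 4 is near that share. The summed level of these 4 genes was 144, 159 and 205 normalised reads in A, B and C and 139.8, 143 and 179 in D, E and F. The groups overlapped, and the ratio of mutant to wildtype was 0.910, with a standard error of 0.123. Fermt1 (kindlin-1), which links integrins to the cytoskeleton in basal keratinocytes, ran from 58.7 to 104.

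Epcam, an adhesion molecule of the epithelial surface, on chromosome 17 (87635979 to 87651129), gave nearly equal values in the genotypes. It stood at 196.6, 209 and 274 normalised reads in A, B and C and at 198, 204 and 279 in D, E and F. C and F were again the highest, and the means were 227 ± 41.8 and 227 ± 45.5 (SD, n = 3 each). The authors' deposited table lists 0.0040 (log2, adjusted p 0.997 by DESeq2's Wald test), and the limma-voom value was 0.01 (95% interval -0.36 to 0.38).

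Shh, on chromosome 5 (28456815 to 28467256), encodes the hedgehog ligand that the palatal epithelium secretes. It stood at 26.4, 18.1 and 41.4 normalised reads in A, B and C and at 39.0, 47.7 and 68.7 in D, E and F. Library D lay below C, so the groups overlapped by that pair alone. The authors' deposited table lists Shh at 0.35 (log2, SE 0.148, p 0.0190, adjusted p 0.298 by DESeq2's Wald test). The unshrunken limma-voom value was 0.85 (95% interval 0.16 to 1.54, adjusted p 0.258). Its unadjusted limma-voom p was under 0.05 with all libraries, without C, D or E and with the 4 libraries, and not without A, B or F. The authors' deposited table of 4 libraries lists 0.22 (p 0.0705). The limma-voom values of Epcam and Trp63 were 0.0093 and 0.28, and the difference of Shh from them was not tested. Neurons of some tissues also express Shh, and the summed normalised reads of 7 neuron markers were lower in every mutant library than in every wildtype library. Singly, Nefl, Isl1 and Stmn2 among these markers overlapped between the genotypes. Of all recovered genes, 8.95% had no overlap in this direction. The part of neurons in the Shh result was not tested.

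Of 11 hedgehog receptor and response genes, the authors' deposited table called 1 higher and 0 lower, and 2 more had an unadjusted p below 0.05, Foxl1 higher and Gas1 lower (2.91% of all genes were called and 10.7% had such a p). The gene that rose was Hhip, which encodes a hedgehog-binding inhibitor. It stood at 641, 566 and 628 normalised reads in A, B and C and at 948, 1058 and 1146 in D, E and F, and the authors' deposited table lists a log2 value of 0.67 (adjusted p 8.92e-09 by DESeq2's Wald test). Its groups did not overlap, as for 8.95% of the recovered genes in this direction. The transcriptional targets Gli1 and Ptch1 had no call in the authors' deposited table, at log2 values of -0.052 and 0.11.

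**Figure D3:**
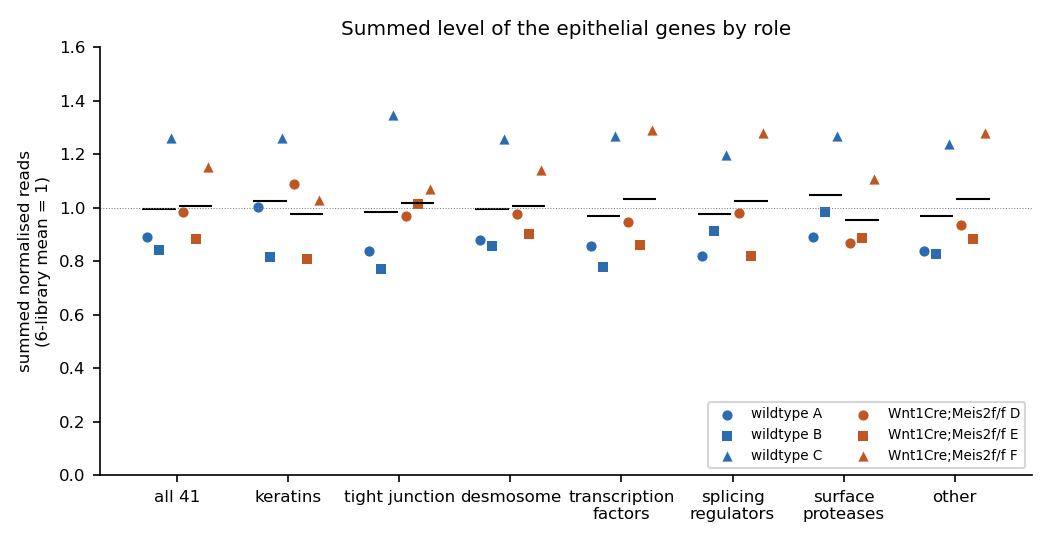
Summed normalised reads of the epithelial genes by role, each divided by its mean over the 6 libraries, with library symbols as in the plot of normalised reads by gene. Black lines are the means of the 3 libraries of a genotype. For all 41 genes together, C and F lie above the other library pair of their genotype, and the genotype means differ by less than the spread of the libraries.

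The spread between libraries of 1 genotype was wider for the epithelial genes than for most genes. Their median coefficient of variation was 0.280 among the wildtype and 0.209 among the mutant libraries, against 0.104 and 0.105 over the 13468 recovered genes of the limma-voom fit. The 2 sets were not matched for level, and counting noise widens this coefficient at low reads. The median base mean of the epithelial genes was 45.0, while 9531 of the 13468 genes reached 100. The part of low reads in the wider spread was not tested. Libraries C and F were high for most of the epithelial genes. Of the 37 measured epithelial genes, 33 were higher in C than in A and B, where 38.5% of all recovered genes were. In the mutant, 25 of 37 were higher in F than in D and E, where 38.1% of all recovered genes were. Both held for 23 of 37, where 23.3% of all recovered genes had both. The median ratio of C to the mean of A and B was 1.56, and that of F to the mean of D and E was 1.34, against 1.00 and 0.996 over all recovered genes. This is a description of 2 libraries, with no replicate for either.

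The excess in C and F was not shared by every gene. Jup (0.989 and 0.826), Krt18 (1.08 and 1.07) and Elf3 (0.666 and 0.760) had ratios near or below 1 in C and in F. Among the 37 measured genes, the largest ratios in C were those of Ehf (2.36), Marveld2 (2.27) and Krt15 (2.27), and in F those of Ovol1 (1.78) and Spint2 (1.76). By any margin, C was the highest wildtype library for 7 of 7 keratins and F the highest mutant library for 3 of 7, Krt18 included. For desmosome genes both counts were 6 of 7. The 10 genes known also from cells outside the epithelium, Jup, Dsp and Krt18 among them, summed to 1.38 in C and 1.21 in F, and the other 31 to 1.55 and 1.26.

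**Figure D4:**
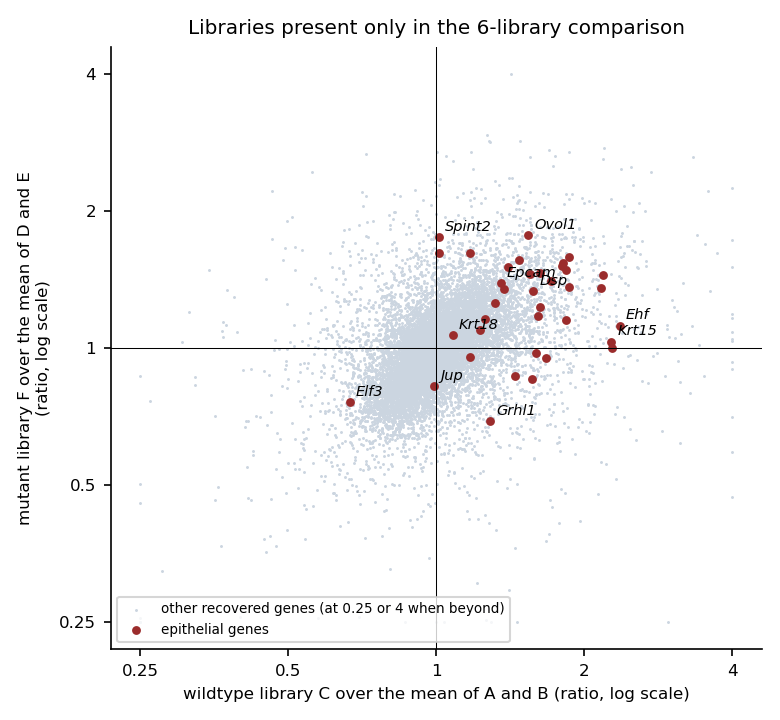
Ratio of library C to the mean of A and B (horizontal) and of library F to the mean of D and E (vertical), both on log scales, for the 13468 recovered genes of the limma-voom fit (grey) and the 37 epithelial genes among them (red). Most red points lie above 1 on both axes, with Jup and Elf3 below 1 on both.

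Other properties of the libraries moved with C and F. Over all recovered genes the ratio in C and the ratio in F were themselves related (Spearman's rho 0.512 across genes, which are not independent replicates). Both rose weakly with exon length over 12928 genes (rho 0.141 in C and 0.216 in F). The median exon length was 3.24 kb over those genes and 2.79 kb over the epithelial genes. The ribosomal RNA gene Rn45s took 14.0% of the summed base means with 6 libraries and 17.4% with 4 in the authors' deposited tables. C and F thus held smaller shares of it on average. The 6-library value also averages in A, B, D and E, so the gap to C and F alone was wider. The gene Lars2 had a base mean of 434110 with 6 libraries and 643070 with 4 in the authors' deposited tables. The part of these properties in the higher epithelial level was not tested.

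Epithelial genes that were not among the 41 gave similar values. Of 21 other genes of epithelial adhesion and polarity, 15 were measured, and the authors' deposited table called 0 of these (DESeq2's Wald test, 1 with an unadjusted p under 0.05). Of all genes, 2.91% were called and 10.7% had such a p, here and for the next list. Cdh1, which encodes E-cadherin, stood at 208, 152 and 348 normalised reads in A, B and C and at 201, 226 and 317 in D, E and F. C and F were again the highest. The authors' deposited table lists Ddr1, a collagen receptor gene, at 0.36 (log2, adjusted p 0.131). All 10 hemidesmosome and laminin genes were measured, and the authors' deposited table called 0 with 6 libraries (DESeq2's Wald test, 1 with an unadjusted p under 0.05). With 4 libraries the authors' deposited table called 1, Dst, at a log2 value of 0.33 (adjusted p 0.00416), where 2.30% of all genes were called. Dst encodes dystonin, which neurons and muscle also use. All 8 hemidesmosome and laminin genes whose reads could be recovered were highest in C and in F within their genotype, with median ratios of 1.62 and 1.36. Of all recovered genes, 38.5% were highest in C and 38.1% in F. Col17a1, a collagen of the hemidesmosome, stood at 96.7, 105 and 215 in the wildtype and at 127, 91.7 and 151 in the mutant libraries.

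Of 18 regulators known in oral epithelium, 14 were measured, and the authors' deposited tables called 0 with 6 or with 4 libraries (DESeq2's Wald test, 0 with an unadjusted p under 0.05 with 6). Of all genes, 2.91% were called with 6 libraries and 2.30% with 4, and 10.7% had such a p with 6. Sostdc1 and Tfap2c, with base means of 568 and 404 in the authors' deposited table, were among the more abundant of the regulators. Within their genotype, 9 of the 14 regulators were highest in C and 9 in F (38.5% and 38.1% of all recovered genes). Their median ratios were 1.32 in C and 1.40 in F. Mesenchymal or neural crest cells use some of these genes too, Tfap2c and Lef1 among them, and both were lower in C than in A and B. Most genes of a list for later, stratified epithelium and periderm had base means under 10. Of 12 such genes only Krt7, Krt10 and Arhgap29 were measured, with base means of 30.1, 68.3 and 1981 in the authors' deposited table. Krt13, Ivl and Sprr1a were listed at 0 there.

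Other cell types' markers varied among the libraries too. Of 10 endothelial genes 9 were highest in C and 8 in F within their genotype, with median ratios of 1.205 and 1.15, and the authors' deposited table called 0 of 10 between the genotypes (DESeq2's Wald test, 0 with an unadjusted p under 0.05). Of all recovered genes, 38.5% were highest in C and 38.1% in F, and 10.7% of all measured genes had such a p. Other lists did differ between the genotypes. The authors' deposited table called 7 of 11 muscle genes higher in the mutant (Actc1, Des, Myl4, Myod1, Myog, Tnnt1 and Tnnt2), and 3 of 10 macrophage genes higher (Adgre1, Csf1r and Mrc1). The authors' deposited table called 4 of 7 measured neuron genes lower (Dcx, Elavl4, Nefm and Tubb3) and 2 of 17 mesenchymal genes lower (Prrx1 and Twist1). Of all genes, 2.91% were called. With 4 libraries (2.30% of all genes called) the authors' deposited table called 3 muscle and 2 macrophage genes higher. It called 1 neuron gene (Dcx) and 2 mesenchymal genes lower, and 1 mesenchymal gene (Pdgfra) higher. Neuron markers had a median ratio of 2.04 in C and 1.05 in F over 7 genes. Muscle markers had median ratios of 1.22 in C and 0.731 in F over 11 genes, and their highest level was in library E. Of 17 mesenchymal genes the 7 with recovered reads had median ratios of 0.780 in C and 0.925 in F, and 0 of these 7 were highest in C or in F. The higher epithelial level in C and F thus went with a higher endothelial median in both and a lower median of these 7 mesenchymal genes. Not each of the 7 was lower, since Prrx2 had ratios of 0.9997 in C and 1.03 in F. The mesenchymal genes without recovered reads, Vim, Col3a1, Pdgfra and Fn1 among them, could not be placed by library. The lower level is therefore not shown for mesenchyme as a whole. The part of the endothelial and mesenchymal levels in the result was not tested.

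**Figure D5:**
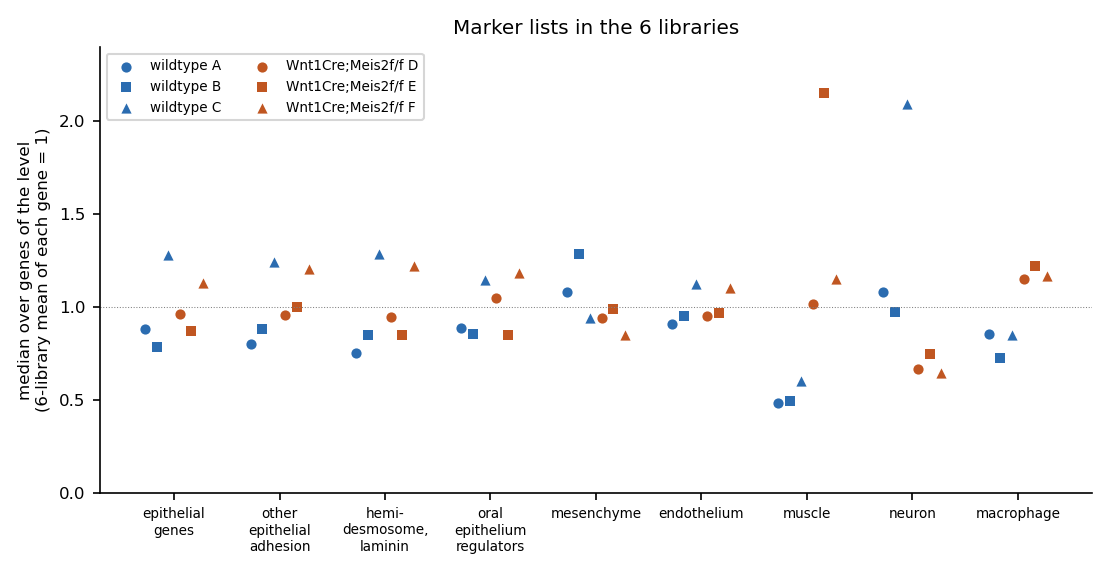
Median of the normalised reads over the genes of each list with recovered reads, each gene divided by its mean over the 6 libraries. Library symbols are as in the plot of normalised reads by gene. The epithelial genes lie at 1.28 in C and 1.13 in F and between 0.786 and 0.964 in the other libraries.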

How the data were processed

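RNA-seq libraries were made with TruSeq RNA v2 after amplification of the RNA, per the labels' protocols. The authors used HISAT2, featureCounts and DESeq2 with the builds GRCm38 and mm10, per the submitters' processing notes, without stating versions, settings or strand use. The authors deposited a base mean (a signal, averaging size-factor-scaled counts), a log2 fold change with its standard error, a Wald score, and a p-value with its Benjamini-Hochberg adjusted p-value. The tables of 6 and of 4 libraries share libraries, so they are not independent. The table of selected rows was not used.

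The size factor of each library was read from genes with a single read, whose base means take 6 levels. Whole read counts per library were then found that give both base means (printed to 10 and 15 digits), up to a 4-library base mean of 3000. Of 20075 genes, 19879 (99.0%) had 1 solution and were used, 0 had none and 196 had several. In simulated libraries of 6182 genes under a base mean of 700, 100% of counts were found exactly, and of 7226 genes under 3000, 99.5% had 1 solution. Over 9531 genes whose base mean reached 100, the deposited log2 fold changes and those of the recovered reads had a Pearson r of 0.962 across genes. The floor of 3 counts covers counting error only, and the limma-voom intervals come from the spread between libraries.

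Calls are the authors' adjusted p under 0.05. Library sizes for voom were the size factors read from the single-read genes. Recovered reads were fitted with voom of limma 3.58.1 (R 4.3.3) for genes whose base mean reached 10, with Benjamini-Hochberg adjustment. This was added after seeing the data, and was tested on simulated data. Python 3.11.15 was used otherwise. The genes and lists were chosen with earlier results of these data known. All members are accounted for, and values are given for Epcam, members with an unadjusted p under 0.05, the 10 highest per kb, the 5 largest fold changes and those with a base mean under 10; other members were named by role. From other lists, called genes were named; genes of high base mean were named from some lists only, and others named were chosen after their values were seen.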

Additional observations from a re-analysis of the deposited data

How the results depend on the processing

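The 4-library table, an adjusted p under 0.1, limma-voom with all 6 libraries or with 4, and limma-voom with each library left out, the limma-voom fits being chosen after seeing the data, each called 0 epithelial genes, and an unadjusted p under 0.05 gave 3. The epithelial median (log2) of 0.0040 from the authors' deposited table was 0.065 with limma-voom, and ran from -0.084 without library B to 0.20 without library C when 1 library was left out, so its sign depends on single libraries. The ratio of summed levels ran from 0.936 to 1.16 when 1 library was left out, was 1.08 among A, B, D and E and 0.914 for F over C. The share of 279 in 1000000 was 335 without Rn45s and Lars2 in the total and 125 without the 10 genes known outside epithelium. With 4 libraries the sign of the log2 fold change differed for 9 uncalled genes in the authors' deposited tables, to 0.15 for Krt15, 0.028 for Dsc2, 0.019 for Pkp1, 0.052 for Jup, 0.011 for Grhl1, -0.011 for Ovol2, -0.00063 for Sp6, 0.086 for Prss8 and -0.0038 for Epcam. The cause was not tested. No paired analysis was possible because the tables carry no replicate numbers.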
